A study of Mus musculus with 12 samples.

Results

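The interleukin-1 and interleukin-36 cytokines were followed here as 9 genes: the interleukin-1 genes Il1a and Il1b and their receptor antagonist Il1rn, the interleukin-36 genes Il1f6, Il1f8 and Il1f9 and their receptor antagonist Il1f5, and the related genes Il18 and Il33. They were chosen as a gene family by name, with earlier results of these data known. Each had 1 probe set among the 22180 genes measured. The symbols Il1f5, Il1f6, Il1f8 and Il1f9 are those of the array annotation, for genes now named Il36rn, Il36a, Il36b and Il36g. RNA came from mouse keratinocytes, the barrier-forming cells of the epidermis, which in all groups carried Atg7 f/f, alleles of the autophagy gene Atg7 that Cre recombinase can delete. KO cells carried K14::Cre + (autophagy deficient), with Cre driven by the promoter of the basal keratin 14 gene, and wt cells were K14::Cre - (autophagy competent). Cells of each genotype were grown in KGM-2 medium to 50% confluence, then treated with 20 µM paraquat, a redox-cycling herbicide that generates superoxide, or sham treated, and RNA was taken after 48 h. The 4 groups, KO paraquat, KO sham, wt paraquat and wt sham, held 3 arrays each. The labels give no animal, age or litter for an array, so p-values measure the spread between these samples, which may be technical.

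Cytokines of this family act through paired receptor chains that share a signalling adaptor, MyD88, and lead to activation of NF-kB. Keratinocytes store interleukin-1 alpha and interleukin-33, which act as alarm signals when cells are damaged, and the epidermis is a main source of interleukin-36, which is prominent in psoriasis. The antagonists encoded by Il1rn and Il1f5 occupy the receptors without signalling, whereas the interleukin-1 beta and interleukin-18 precursors must be cut, typically by caspase-1, before they act.

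Values are signals from the authors' deposited table, on a linear scale with no unit, and folds compare a probe set only with itself. The array medians were 42 to 45, and no background measure was used, so low signals are not known to be above background. Atg7 read 96 to 148 in the 6 KO arrays and 286 to 457 in the 6 wt arrays, a log2 difference of -1.87 under paraquat and -1.55 in sham. Its probe set spans the whole transcript, so the signal left in KO measures no remaining protein. Krt14, a defining basal keratinocyte gene, read 8933 to 11102 over the 12 arrays. Krt5 had no probe set of its own in the annotation. Among 20 leukocyte and Langerhans markers, 11 stayed below the array median on every array, Ptprc, Adgre1, Lyz2, Itgax and Tyrobp among them. The other 9 did not, among them Cd68, which averaged 587 in wt sham and 1825 in wt paraquat. Cd14 averaged 53.3 and 229 in these 2 groups, and S100a8 1091 and 5006. Cd207 averaged 51.7 in KO paraquat and 54.7 in KO sham. In a principal component analysis, the second component gave wt sham 2 a score of 31.4, where wt sham 1 and 3 had 11.4 and 20.4. On the third, KO paraquat 3 scored -19.7, where KO paraquat 1 and 2 had -5.52 and -6.34.

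The genes Il1f8, Il1f9, Il1f6, Il1f5, Il1f10 and Il1rn follow each other on chromosome 2 with no other coding gene between them in RefSeq, and Il1a and Il1b are neighbours elsewhere on that chromosome. Il18 lies on chromosome 9 and Il33 on chromosome 19. The 250 bases before the RefSeq start (GRCm38.p6) were read for 8 of the 9 members, 12 sequences in all, because 6 members rose together under paraquat. They were searched on both strands for the AP-1 motif TGANTCA, the C/EBP motif TTGCNNAA, the antioxidant response motif TGACNNNGC and a kappaB motif. The AP-1 letters stood in 3 of them. Those 3 are shown, with Il1f9, whose window held no motif searched, for contrast, and capitals mark the AP-1 letters.
Il1a, chr2:129309973-129310222, minus strand: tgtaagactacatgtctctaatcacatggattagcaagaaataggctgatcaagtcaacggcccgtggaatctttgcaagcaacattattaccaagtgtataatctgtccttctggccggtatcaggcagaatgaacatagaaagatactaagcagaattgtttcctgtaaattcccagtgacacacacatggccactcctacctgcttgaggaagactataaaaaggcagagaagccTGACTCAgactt
Il1rn, first of 3 starts, chr2:24336610-24336859, plus strand: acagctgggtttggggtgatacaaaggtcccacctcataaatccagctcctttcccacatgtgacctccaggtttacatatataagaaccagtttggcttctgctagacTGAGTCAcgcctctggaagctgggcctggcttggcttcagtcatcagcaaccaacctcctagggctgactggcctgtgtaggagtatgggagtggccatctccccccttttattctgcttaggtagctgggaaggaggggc
Il1f8, chr2:24152922-24153171, plus strand: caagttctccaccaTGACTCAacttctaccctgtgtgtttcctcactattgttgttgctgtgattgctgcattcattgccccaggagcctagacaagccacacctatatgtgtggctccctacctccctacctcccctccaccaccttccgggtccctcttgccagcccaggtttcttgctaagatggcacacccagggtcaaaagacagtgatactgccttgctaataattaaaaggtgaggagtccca
Il1f9, chr2:24186226-24186475, plus strand: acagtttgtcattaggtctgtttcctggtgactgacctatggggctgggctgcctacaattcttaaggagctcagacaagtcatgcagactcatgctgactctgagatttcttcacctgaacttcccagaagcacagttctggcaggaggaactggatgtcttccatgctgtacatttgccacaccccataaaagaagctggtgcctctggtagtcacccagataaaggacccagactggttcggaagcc

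Counted from the start, the AP-1 letters lay at -12 to -6 in Il1a, -141 to -135 in Il1rn and -236 to -230 in Il1f8. Of 32851 RefSeq windows of this length, 6.75% held them. The C/EBP letters stood in 1 window each of Il1f5 and Il33 and in 9.56% of all windows. The antioxidant response letters (10.2% of all windows) and the kappaB motif (7.25%) had no match in the 12. These matches are letters in a window and say nothing of binding.

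The first question was how the family responded to paraquat in KO and in wt keratinocytes. In KO cells 6 members rose, 2 fell and 1 did not pass the threshold (an adjusted p of 0.05 in limma, over 22180 genes), and 27.1% of all genes passed it, 14.5% higher and 12.6% lower. In wt cells 6 rose, 1 fell and 2 did not pass, where 29.2% of all genes passed, 14.9% higher and 14.3% lower. The same 6 genes rose in both genotypes: all interleukin-36 ligands and their antagonist, Il1a and Il1rn. The median log2 change over the 9 members was 1.44 in KO and 1.53 in wt, against 0.0079 and 0.0088 over all genes. As the members were chosen with earlier results known, these counts and medians are a description and carry no test of the family. In bulk cultures, more cells of a state and more RNA per cell cannot be told apart.

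**Figure D1:**
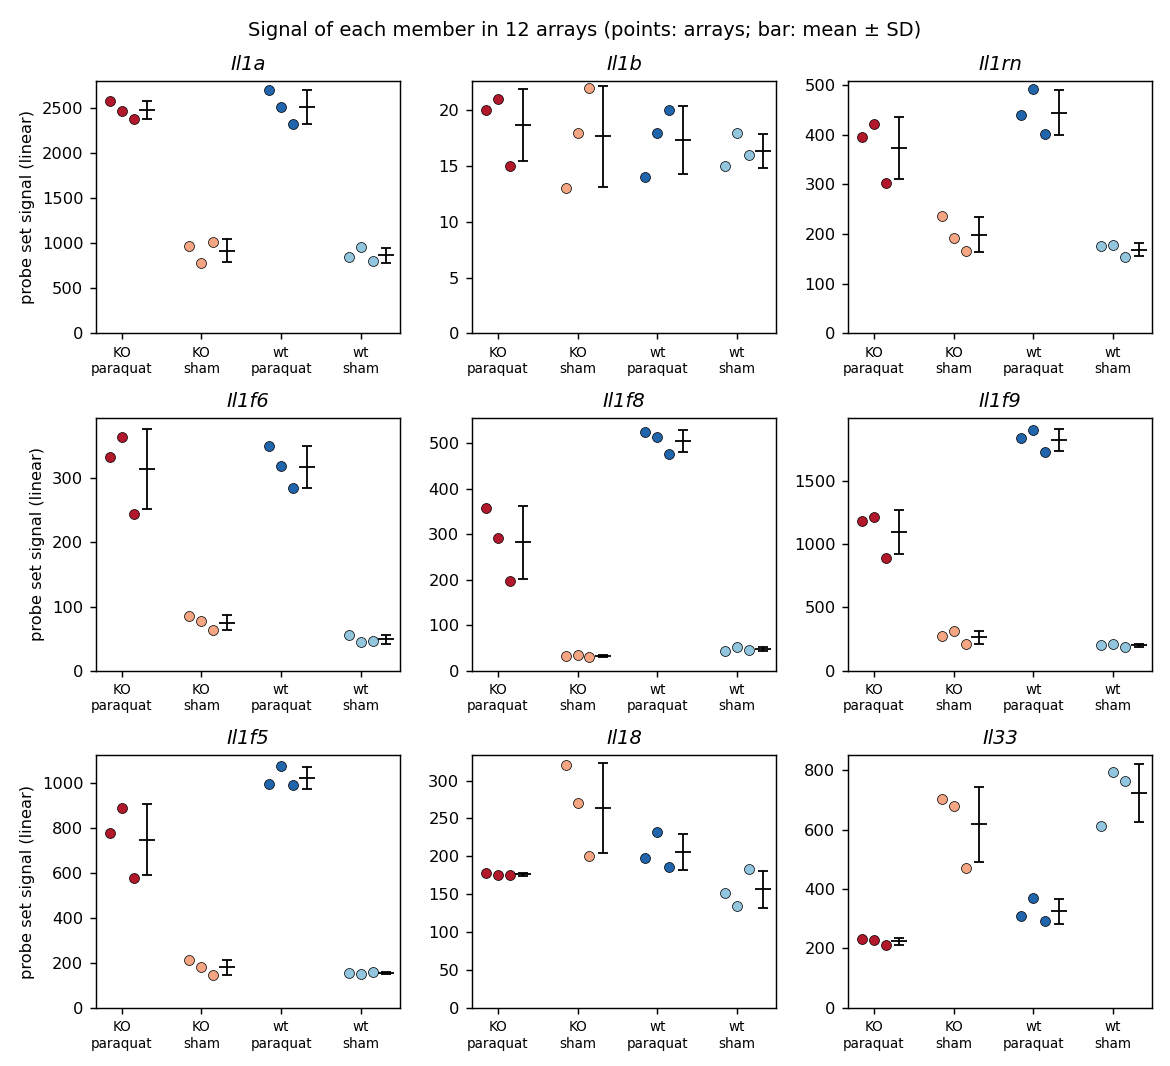
Signal of each member on every array (linear axis from 0, no unit), with groups from left to right KO paraquat, KO sham, wt paraquat and wt sham. Points are arrays, 3 per group, and bars give the group mean ± SD. Il1f8 lies at 198 to 525 under paraquat and at 29 to 53 in sham, while Il1b stays at 13 to 22 in all groups.

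Il1f8, encoding the ligand interleukin-36 beta, had signals of 358, 292 and 198 in KO paraquat, against 33, 35 and 29 in KO sham. In wt paraquat it read 525, 514 and 477, against 43, 53 and 46 in wt sham. All paraquat arrays lay above all sham arrays, and the fold was among the 25 largest rises of all genes in KO and the 32 largest in wt. The change was log2 3.09 ± 0.17 (SE) in KO, 8.52-fold (95% interval 2.73 to 3.46 on the log2 scale, adjusted p = 8.8e-08), and log2 3.42 ± 0.17 in wt, 10.7-fold (3.06 to 3.79, adjusted p = 1.29e-08). The sham signals were near the array median, so these folds rest on a level not shown to be above background.

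Il1f9, encoding interleukin-36 gamma, read 1180, 1209 and 890 in KO paraquat, against 271, 310 and 210 in KO sham. Wt paraquat arrays read 1837, 1896 and 1727, against 201, 212 and 183 in wt sham. Paraquat arrays lay above sham arrays in both genotypes, and the wt paraquat arrays lay above the KO paraquat arrays. It rose by log2 2.06 ± 0.14 in KO, 4.16-fold (adjusted p = 3.86e-07), and by log2 3.20 ± 0.14 in wt, 9.17-fold (adjusted p = 5.94e-09).

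Il1f6, encoding interleukin-36 alpha, read 334, 365 and 244 in KO paraquat, against 85, 77 and 63 in KO sham. Signals in wt paraquat were 350, 319 and 285, against 56, 44 and 46 in wt sham. The paraquat arrays of both genotypes overlapped, while the KO sham arrays all lay above the wt sham arrays. The rise was log2 2.06 ± 0.16 in KO, 4.16-fold (adjusted p = 8.93e-07), and log2 2.71 ± 0.16 in wt, 6.55-fold (adjusted p = 3.74e-08). The wt sham signals of Il1f6 were near the array median, so its wt fold rests on a level not shown to be above background. Over 21 alternatives the wt rise was 2.37 to 2.82.

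The antagonists rose with the ligands. Il1f5, the interleukin-36 receptor antagonist, read 777, 891 and 578 in KO paraquat, against 214, 183 and 146 in KO sham. The wt paraquat arrays read 999, 1079 and 994, against 154, 151 and 159 in wt sham. The wt paraquat arrays were the highest, and the sham arrays of both genotypes overlapped. Its rise was log2 2.04 ± 0.15 in KO (4.12-fold, adjusted p = 7.18e-07) and log2 2.73 ± 0.15 in wt (6.62-fold, adjusted p = 3.06e-08). Il1rn, the interleukin-1 receptor antagonist, read 395, 422 and 302 in KO paraquat, against 236, 193 and 166 in KO sham. In wt paraquat it read 440, 491 and 401, against 176, 177 and 153 in wt sham. Within each genotype the paraquat arrays lay above the sham arrays, and within each treatment the genotypes overlapped. Its rise was log2 0.91 ± 0.15 in KO (1.88-fold, adjusted p = 3.51e-04) and log2 1.39 ± 0.15 in wt (2.63-fold, adjusted p = 7.16e-06).

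Il1a, encoding the stored alarm cytokine interleukin-1 alpha, read 2584, 2475 and 2379 in KO paraquat, against 966, 777 and 1019 in KO sham. In wt paraquat it read 2706, 2519 and 2329, against 848, 963 and 801 in wt sham. The genotypes overlapped in each treatment, and the treatments did not. The rise was log2 1.44 ± 0.11 in KO (2.71-fold, adjusted p = 9.14e-07) and log2 1.53 ± 0.11 in wt (2.90-fold, adjusted p = 2.45e-07). Its neighbour Il1b, encoding interleukin-1 beta, read 20, 21 and 15 in KO paraquat, against 13, 18 and 22 in KO sham. In wt paraquat Il1b read 14, 18 and 20, against 15, 18 and 16 in wt sham. All 12 Il1b values lay below the array median and around the lower quartile of 18 to 19, and all groups overlapped. Its change was log2 0.10 ± 0.19 in KO (adjusted p = 0.772) and 0.07 ± 0.19 in wt (adjusted p = 0.83), at a level where a change in the transcript might not be seen.

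Il33 was the member that fell in both genotypes. It encodes interleukin-33, a nuclear alarm cytokine that signals through the receptor gene Il1rl1. It read 232, 228 and 211 in KO paraquat, against 702, 680 and 472 in KO sham. In wt paraquat it read 309, 371 and 293, against 613, 794 and 762 in wt sham. Every paraquat array lay below every sham array, and the KO paraquat arrays were the lowest. The change was log2 -1.45 ± 0.15 in KO (2.72-fold lower, adjusted p = 1.04e-05) and log2 -1.15 ± 0.15 in wt (2.23-fold lower, adjusted p = 4.94e-05).

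Il18, encoding interleukin-18, whose precursor keratinocytes hold, read 178, 175 and 175 in KO paraquat, against 320, 271 and 201 in KO sham. In wt paraquat it read 198, 232 and 186, against 152, 134 and 183 in wt sham. The arrays were thus lower under paraquat in KO and higher under paraquat in wt, without overlap in either. It fell by 0.56 ± 0.16 on the log2 scale in KO (adjusted p = 0.0158) and had 0.40 ± 0.16 in wt, which did not pass (adjusted p = 0.0737) but did in 4 of 21 alternatives. The fall in KO was log2 -0.41 without KO sham 1 and -0.53 without KO sham 2, and did not pass in either case.

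**Figure D2:**
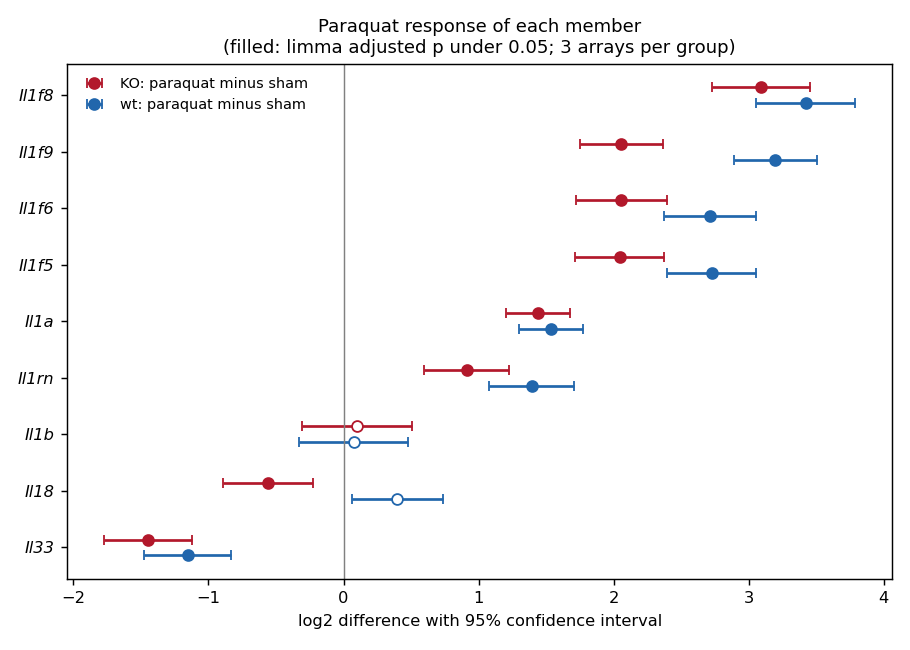
Log2 change under paraquat of each member in KO and in wt cells, from the limma fit to 12 arrays. Points are estimates, filled where the adjusted p is under 0.05, and bars their 95% intervals. The 6 rises lie between 0.91 and 3.42, Il33 lies below 0 in both genotypes, and Il18 lies on opposite sides of 0.

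Ligands and antagonists can be set side by side as the change of one minus that of the other on the same arrays, which is given as a description. The change of Il1a minus that of Il1rn was log2 0.53 in KO and 0.14 in wt. For the interleukin-36 ligands against Il1f5, the difference for Il1f6 was 0.01 in KO and -0.02 in wt, for Il1f8 1.05 and 0.69, and for Il1f9 0.01 and 0.47. Il1f5 thus changed by about as much as Il1f6, and by less than Il1f8, in both genotypes. With 16 added to each signal the value for Il1f8 was 0.64 in KO and 0.44 in wt, and that for Il1f6 was -0.10 and -0.24.

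The next question was whether KO and wt cells differed under the same treatment. Under paraquat, 0 members were higher in KO, 2 were lower and 7 did not pass, where 0.55% of all genes passed, 0.0992% higher and 0.451% lower. The members lower in KO were Il1f8 (log2 -0.88 ± 0.17, 1.84-fold lower, adjusted p = 0.0404) and Il1f9 (-0.75 ± 0.14, 1.68-fold lower, adjusted p = 0.0394). Il33 (-0.53, adjusted p = 0.169) and Il1f5 (-0.47, adjusted p = 0.232) also had all KO arrays below all wt arrays and did not pass. Il18 (-0.22) likewise had no overlap between the genotypes and did not pass, and Il1rn had -0.26. How many of all genes separate in this way was not counted, so lack of overlap carries no weight of its own here or elsewhere. Il1a (-0.02, interval -0.26 to 0.22) and Il1f6 (-0.03, interval -0.37 to 0.31) had intervals around 0, and Il1b had 0.11.

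Those 2 calls stood close to the threshold. KO paraquat 3 was the lowest KO paraquat array for 6 of the 6 members that rose, as wt paraquat 3 was among the wt paraquat arrays, and KO sham 3 was the lowest KO sham array for 5. Among the wt sham arrays, wt sham 3 was the lowest for 3, wt sham 2 for 2 and wt sham 1 for 1. Without KO paraquat 3 Il1f8 had -0.64 and Il1f9 -0.61 and neither passed. Neither passed in a fit to only the 6 paraquat arrays, and none of the 9 members did, with 4 at an unadjusted p under 0.05 in limma. Fewer than 2 members passed on leaving out any 1 of the arrays other than wt sham 2, whether KO or wt, paraquat or sham. Outer-layer keratinocyte markers moved in the same direction as these members: of 14, 3 were lower in KO under paraquat and 0 higher, namely Flg (-0.98), Dsc1 (-0.93) and Lor (-0.91). That count was 0 to 4 over 21 alternatives, with Flg past the threshold in 20, Lor in 15 and Dsc1 in 13. The summed signal of the 14 was 22575 to 27155 in KO paraquat, lowest in KO paraquat 3, and 31176 to 32029 in wt paraquat. It was 12438 to 16581 in KO sham and 15464 to 19730 in wt sham. Sprr1a and Sprr1b made up most of the sum under paraquat, averaging 8602 and 5956 in KO and 10758 and 7022 in wt. Flg, Dsc1 and Lor averaged 259, 580 and 85 in KO paraquat, so the sum says little of them. Markers of this list were also lower in KO without paraquat. In sham 5 of the 14 were lower in KO and 0 higher, where 5.67% of all genes were lower. Dsc1 (-1.59), Lor (-0.95) and Flg (-0.90) were among them, and 3 to 5 passed over 21 alternatives. The difference between the responses passed for 0 of the 14 in limma, with 2 at an unadjusted p under 0.05. Their part in the cytokine differences was not tested.

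In sham cultures 2 members were higher in KO, 0 were lower and 7 did not pass, where 10.2% of all genes passed, 4.58% higher and 5.67% lower. They were Il18 (log2 0.74 ± 0.16, 1.67-fold, adjusted p = 0.00822) and Il1f6 (0.62 ± 0.16, 1.54-fold, adjusted p = 0.0232). For Il1f6 the call was lost without wt sham 2, wt sham 3, KO sham 1 or KO sham 2 (log2 0.53 to 0.60), and both calls were lost in a fit to only the 6 sham arrays. The Il1f6 difference was 0.49 to 0.74 over 21 alternatives, and its wt sham signals were near the array median. Il1f8 went the other way, at -0.55 ± 0.17 with no overlap between the genotypes, and did not pass (adjusted p = 0.0585). It did pass in 8 of 21 alternatives, among them the 6 sham arrays alone. The remaining values were 0.39 for Il1f9, 0.22 for Il1rn, 0.21 for Il1f5, 0.08 for Il1a and for Il1b, and -0.24 for Il33.

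The interaction, the response in KO less the response in wt, asks whether the genotype changed the paraquat response. It uses the same 12 arrays as the comparisons above. Of the 9 members, 0 were higher, 2 were lower and 7 did not pass, where 2.29% of all genes passed, 1.39% higher and 0.897% lower. Il1f9 had -1.14 ± 0.20 (adjusted p = 0.0116), so its rise in KO was 2.20-fold smaller than in wt. It passed in all 20 alternatives run, with adjusted p of 0.00226 to 0.0381. Il18 had -0.96 ± 0.22 (adjusted p = 0.0417) and passed in 8 of 20 alternatives. Its call was lost on leaving out any of 10 of the 12 arrays (all but wt sham 3 and KO sham 3), with values of -0.81 to -1.03. Il1f5 (-0.68, adjusted p = 0.132), Il1f6 (-0.65, adjusted p = 0.162), Il1rn (-0.48, adjusted p = 0.28), Il1f8 (-0.33, adjusted p = 0.571) and Il33 (-0.29, adjusted p = 0.577) had negative values that did not pass. Il1a had -0.10 with an interval of -0.43 to 0.24, and Il1b 0.02. Il1f8 had negative KO minus wt values in both treatments, and Il1f9 had a negative value under paraquat and a positive one in sham.

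**Figure D3:**
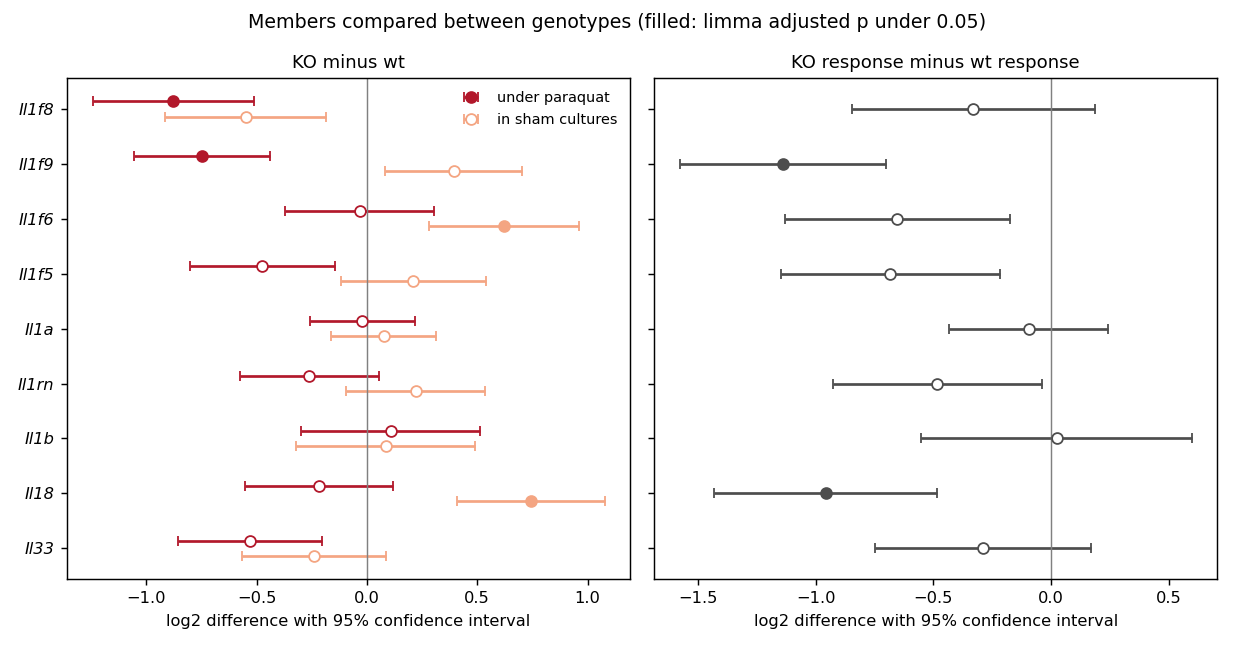
Left, log2 difference of KO minus wt for each member under paraquat and in sham cultures. Right, response in KO less response in wt. Bars are 95% intervals from the limma fit, and points are filled where the adjusted p is under 0.05. Il1f8 and Il1f9 lie at -0.88 and -0.75 under paraquat, Il18 and Il1f6 at 0.74 and 0.62 in sham, and Il1f9 and Il18 at -1.14 and -0.96 on the right.

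The related ligand gene Il1f10, encoding interleukin-38, lies within the same gene cluster. It read 85, 89 and 94 in KO paraquat, against 70, 72 and 62 in KO sham, and 133, 127 and 76 in wt paraquat, against 63, 60 and 54 in wt sham. It rose in wt (log2 0.88, adjusted p = 0.00109) and had 0.40 in KO (adjusted p = 0.104), and the difference between the responses did not pass (-0.49, adjusted p = 0.354).

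Of 11 receptor and binding protein genes 10 were measured. Of these, 4 stayed below the array median on every array (Il1r2, Il18rap, Il1rapl1 and Il1rapl2), where a change might not be seen. In each genotype 1 of the 10 passed the threshold, where 27.1% of all genes passed in KO and 29.2% in wt. In KO 1 fell, the decoy receptor Il1r2 (-0.32, adjusted p = 0.0236), at signals of 19 to 27 below the array median. In wt 1 rose, the inhibitory receptor Sigirr (0.40, adjusted p = 0.0233). Its signals were 29 to 35 in wt sham and 35 to 47 in wt paraquat, below or near the array median. Il1r2 passed in 13 of 20 alternatives, with -0.19 where 16 was added to each signal, and Sigirr in 15 of 20. Il1rl2, the interleukin-36 receptor, averaged 746 ± 35.1 (SD) in KO paraquat, 764 ± 72.1 in KO sham, 709 ± 50.5 in wt paraquat and 672 ± 114 in wt sham. Il1rl2 thus had changes of -0.03 in KO and 0.09 in wt, Il1r1, the interleukin-1 receptor, -0.22 and 0.14, and Il1rap, the shared accessory chain, -0.05 and 0.05, none past the threshold. The interleukin-18 receptor chains Il18r1 (-0.14 in KO, 0.07 in wt) and Il18rap (-0.09 and 0.27) and the interleukin-18 binding protein Il18bp (-0.22 and -0.16) did not pass either. Il1rapl1 (0.05 and 0.16) and Il1rapl2 (0.09 and -0.18) completed the list. Il1rl1 had no probe set of its own in the annotation. Between genotypes 0 of the 10 passed in limma in either treatment, with 0 at an unadjusted p under 0.05 under paraquat and 2 in sham.

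Among 22 measured genes of cytokine processing and release, 2 rose and 3 fell in KO, and 3 rose and 4 fell in wt. Over all genes 27.1% passed in KO and 29.2% in wt, so these counts were near the share of all genes. The genes named below are thus a description. Of the 22 genes, 11 stayed below the array median on every array, Nlrp3, Aim2 and Ctss among them, where a change might not be seen. Gsdma, encoding a pore-forming gasdermin of the epidermis, rose by log2 3.08 in KO and 2.98 in wt. Gsdmd, the gasdermin cut by inflammatory caspases, rose by 0.46 in KO and 0.95 in wt. Pycard, the inflammasome adaptor ASC, fell by 0.78 in KO and 0.77 in wt on the log2 scale. Gsdmc fell in both (-0.68 in KO and -0.43 in wt). Casp4, the caspase that senses intracellular lipopolysaccharide, had -0.10 in KO, which did not pass, and fell in wt (-0.67), and the difference between the responses did not pass (0.57, adjusted p = 0.228). Between genotypes in sham, Gsdma was lower (-0.95) and Gsdmd higher (0.42) in KO. The call for Gsdmd held in 11 of 21 alternatives, and with the mean over its probe sets the value was 0.13 (adjusted p = 0.485). Under paraquat 0 of the 22 passed in limma, with 3 at an unadjusted p under 0.05, and Casp1, which cuts the precursors of interleukin-1 beta and interleukin-18, had 0.68 (adjusted p = 0.0865).

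Of 13 measured signalling genes downstream of the receptors, 7 rose and 2 fell in KO, and 6 rose and 2 fell in wt. Over all genes 27.1% passed in KO and 29.2% in wt. The adaptor Myd88 rose by log2 0.96 in KO and 1.21 in wt, the kinase gene Irak2 by 0.78 and 0.69, and the NF-kB subunit gene Rela by 0.64 and 0.49. Tollip, an inhibitor of this signalling, rose by 0.52 in KO and 0.30 in wt, and the kinase gene Ikbkb fell in both (-0.35 and -0.68). The weaker call of each was lost in some alternatives, passing in 13 of 21 for Ikbkb in KO and in 16 of 21 for Tollip in wt. In sham 5 of the 13 were lower in KO, among them Irak3, an inhibitory member of its kinase family (-0.85), Tab2 (-0.46), Irak2 (-0.39) and Rela (-0.27). Of all genes 5.67% were lower in KO sham. Over 21 alternatives 2 to 5 of the 13 passed, Irak3 in 21 and Rela in 12. Under paraquat 0 of the 13 passed between genotypes in limma, with 4 at an unadjusted p under 0.05.

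Genes that interleukin-1 or interleukin-36 induce in keratinocytes were counted as a list of 21. In KO 12 rose and 2 fell (median log2 0.55), and in wt 13 rose and 3 fell (median 0.62). Over all genes 27.1% passed in KO and 29.2% in wt. The beta-defensin gene Defb3, for an antimicrobial peptide, rose by log2 3.93 in KO and 3.78 in wt. The chemokine gene Cxcl5, whose product attracts neutrophils, rose by 2.15 in KO and 2.98 in wt, and S100a9, a subunit of calprotectin, by 2.09 and 2.76. The beta-defensin gene Defb14 rose by 2.08 in KO and 2.27 in wt, and Cxcl3 by 2.05 and 4.25. The lowest values, named after they were seen, were -1.35 for the cytokine gene Tnf in KO and -2.18 for Il23a in wt. Il23a encodes a subunit of interleukin-23. Tnf averaged 296 ± 31.5 (SD) in KO paraquat and 753 ± 52.3 in KO sham. In wt it averaged 202 ± 7.09 under paraquat and 440 ± 142 in sham. Il23a averaged 65 ± 7.94 in wt paraquat and 313 ± 133 in wt sham. In sham 9 were higher and 2 lower in KO, where 10.2% of all genes passed. Cxcl3 had 2.56, Cxcl5 1.39 and Cxcl1 0.84, while Il23a was lower (-1.75). Under paraquat 0 of 21 passed between genotypes in limma, with 9 at an unadjusted p under 0.05. The difference between the responses passed for 4 of them, higher for Il23a (1.70) and lower for Cxcl3 (-2.19), Cxcl5 (-0.83) and Cxcl1 (-0.60). Over the 20 alternatives this count was 1 to 5: Cxcl3 passed in 20, Il23a in 11, Cxcl1 in 10 and Cxcl5 in 6. The sham count of 11 was 4 to 12 over 21 alternatives.

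**Figure D4:**
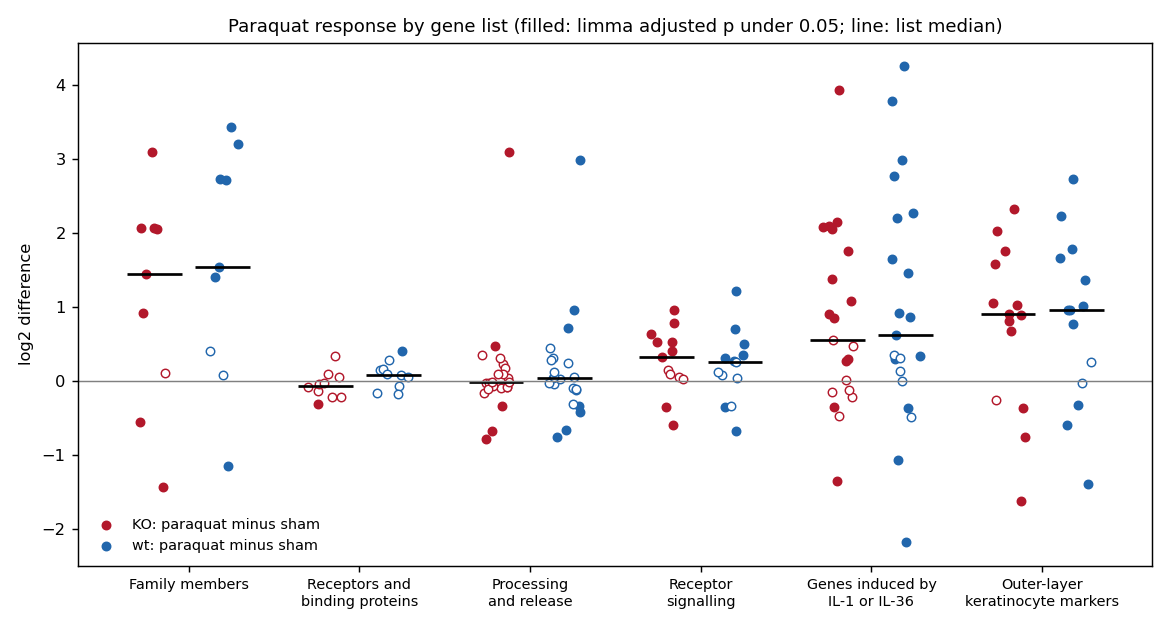
Log2 change under paraquat of the genes of each list in KO and in wt cells. Points are genes, filled where the limma adjusted p is under 0.05, and lines are list medians. The members spread from -1.45 to 3.42 and the receptors lie between -0.32 and 0.40.

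Most outer-layer keratinocyte markers rose under paraquat, and the early suprabasal keratin genes fell. Of 14, 10 rose and 3 fell in KO, and 9 rose and 3 fell in wt, such as the envelope precursor Ivl (2.32 in KO, 2.73 in wt), the transglutaminase Tgm1 (2.03 and 1.77) and the transcription factor gene Grhl3 (1.76 and 2.23). The fallers, named after their values were seen, were the keratin genes Krt1 (-1.62 and -1.40) and Krt10 (-0.76 and -0.61) and the desmosomal cadherin gene Dsg1a (-0.37 and -0.33). Of 20 leukocyte and Langerhans markers, 4 rose and 1 fell in KO, and 6 rose and 1 fell in wt, among them Cd14 (2.04 and 2.11), Cd68 (1.05 and 1.64) and S100a8 (1.75 and 2.20), the last of which keratinocytes also express. The summed signal of that list was 6253 to 7260 in KO paraquat, 2119 to 2899 in KO sham, 7215 to 8046 in wt paraquat and 2044 to 2310 in wt sham. S100a8 alone averaged 4722 in KO paraquat, 1430 in KO sham, 5006 in wt paraquat and 1091 in wt sham, and made up most of that difference. The mean log2 signal over the list was 5.31, 5.06, 5.39 and 5.04 in the same order of groups. Of 8 melanocyte markers 4 rose in KO and 4 in wt, such as Mlana (2.36 and 2.57), with summed signals of 921 to 966 in KO paraquat, 481 to 532 in KO sham, 930 to 1013 in wt paraquat and 427 to 505 in wt sham. Of 8 endothelial markers 2 rose in KO and 3 in wt, such as Kdr (1.38 and 2.21). Of 9 fibroblast markers 1 rose in KO, and 1 rose and 1 fell in wt. Of 7 basal keratinocyte markers 3 fell in KO and 4 in wt, such as Itgb4 (-0.67 and -1.20). Beside these counts, 27.1% of all genes passed in KO and 29.2% in wt. The part of these lists in the cytokine changes was not tested.

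Likeness of pattern was measured as Pearson's r of log2 signal over the 12 arrays, among 489 genes above the median signal with a range of at least 2 on the log2 scale. The arrays share their groups, and paraquat and sham arrays stand apart for these genes, so r describes likeness over groups and carries no test. Il1f8 was most like Nccrp1 (r = 0.999), Ubl3 (0.999) and Ugcg (0.997). Il1f9 was most like Fam102b (0.996), Il1f6 like Slc6a14 (0.995), Il1f5 like Ephx3 (0.997), Il1rn like Serpinb8 (0.987) and Il1a like S100a7a (0.994). Il33 was most like Lpl (0.971), Fosb (0.965) and Slc27a6 (0.955). Il18 had no close match, with Bub1b at 0.760, and Il1b none above 0.463.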

How the data were processed

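Total RNA of mouse keratinocytes was labelled and hybridised to 12 Affymetrix whole-transcript arrays. The deposited values are probe set intensities. Per the submitters' processing notes, the authors computed them by RMA (Affymetrix Expression Console 1.3.1.187). They were whole numbers from 3 to 17695, read as RMA signals on a linear scale, and their log2 was taken here. For the genome build and filters, the sources used here name none.

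Of 41345 probe sets, 23521 had 1 gene symbol, 1814 several and 16010 none. The probe set of highest mean stood for a gene, giving 22180 genes with no filter. limma 3.58.1 in R 4.3.3 fitted 1 mean per group to all 12 arrays, with Benjamini-Hochberg adjustment over all genes, a threshold of 0.05 and 2-sided tests. The code was tested on simulated arrays. The number of arrays limits the precision.

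The members and lists were chosen with earlier results of these data known. Named were all members and receptors, up to 4 genes per list past the threshold in order of p (otherwise the 2 of smallest p), and the closest genes by likeness. Over all genes, same-numbered arrays did not deviate together (r of -0.0727 to 0.0902 over 18 pairs), so the main fit had no block. Among the 6 members that rose, the array numbered 3 was most often the lowest in every group. The r over all genes therefore does not settle pairing for these members. Alternatives were rescalings, a filter on dim genes, the mean over probe sets, an offset of 16, array weights, the 6 arrays compared, a replicate block and leaving out arrays.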

Additional observations from a re-analysis of the deposited data

Results flagged for a closer look

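With all arrays in the fit, the paraquat responses of 8 genes among the members and lists differed between KO and wt. The test was of the difference itself (limma, adjusted over all genes, n = 3 arrays per group), and 508 of all 22180 genes (2.29%) passed it. The 8 were 2 of 9 members, 4 of 21 genes induced by interleukin-1 or interleukin-36, 1 of 20 leukocyte and 1 of 9 fibroblast markers. Of 10 receptor, 22 processing, 13 signalling, 14 outer-layer, 7 basal, 8 melanocyte and 8 endothelial genes, 0 passed, and Il1f10 did not pass. Values are given as KO response minus wt response on the log2 scale. Il1f9 had -1.14 (adjusted p = 0.0116) and Il18 had -0.96 (adjusted p = 0.0417). Cxcl3 had -2.19, Cxcl5 -0.83 and Cxcl1 -0.60. These 3 chemokine genes were already higher in KO sham than in wt sham: Cxcl3 averaged 140 ± 30.0 (SD) in KO sham and 24.7 ± 9.29 in wt sham, a level below the array median. Il23a had 1.70, with 88.7 ± 17.2 in KO sham and 313 ± 133 in wt sham. Cd68, a lysosomal membrane protein gene of macrophages and other cells, had -0.59. Mmp2, a matrix protease gene, had 0.53, with 55.7 ± 0.577 in KO sham and 80.7 ± 3.51 in wt sham. Il1f9 and Cxcl3 passed in all 20 alternatives run. The other calls were lost in many of them, passing in 11 of 20 for Il23a, 10 for Cxcl1 and for Cd68, 9 for Mmp2, 8 for Il18 and 6 for Cxcl5, with the sign unchanged for each.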

How the results depend on the processing

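The rises of Il1a, Il1rn, Il1f5, Il1f6, Il1f8 and Il1f9 and the fall of Il33 under paraquat passed the threshold in all 21 alternatives in both genotypes. Members passing in KO paraquat minus wt paraquat (2) were 0 with only the 6 arrays compared, 0 without wt sham 2 and KO paraquat 3 together, and 0 to 2 on leaving out 1 array. Those in KO sham minus wt sham (2) were 1 with only the 6 arrays compared, 4 with the replicate block, and 1 to 3 on leaving out 1 array. Those in the difference between responses (2) were 1 with the replicate block, 1 without both arrays, and 1 to 2 on leaving out 1 array. Every 0 had 3 to 5 members at an unadjusted p under 0.05 in limma. Leaving out KO paraquat 3 moved the most for the paraquat difference of Il1f8 and Il1f9; the cause was not tested.

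Values that changed sign were uncalled. For KO paraquat minus wt paraquat, Il1a was 0.0019 with median centring, 0.0089 without both arrays and -0.075 to 0.033 on leaving out 1. Il1f6 was 0.031 with array weights, 0.14 without both and -0.15 to 0.14 on leaving out 1. Il1a in sham was -0.0028 to 0.19 on leaving out 1. Il1b on leaving out 1 was -0.11 to 0.27 for the KO response, -0.037 to 0.22 for the wt response, -0.039 to 0.26 between genotypes under paraquat, -0.090 to 0.29 in sham and -0.18 to 0.20 for the difference between responses. Il1b was not tested under the filter on dim genes.

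Over all genes, 122 passed in KO paraquat minus wt paraquat, against 3 with the 6 arrays compared, 228 with the dim filter, 231 with 16 added, 249 with array weights, 44 without both arrays and 30 to 171 on leaving out 1. In sham 2273 passed, against 976, and 1360 without both arrays. In the difference between responses 508 passed, against 894 with the dim filter, 882 with 16 added, 268 without both arrays and 250 to 700 on leaving out 1.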
